A study of Mus musculus with 12 samples.

Results

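The NF-kB transcription factor family and its inhibitors were examined as transcripts in mouse airway eosinophils that did or did not carry TREM-1, an activating receptor of myeloid cells, at the surface. The 10 genes were taken by an exact match of their symbols in the deposited count table of 39666 genes. They are the 5 subunits Nfkb1, Nfkb2, Rel, Rela and Relb, the 3 classical inhibitors Nfkbia, Nfkbib and Nfkbie, and the 2 nuclear IkB proteins Nfkbiz and Bcl3. All 10 were present in the table and all 10 passed the filter on low counts, as did 18302 genes in all.

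The cells came from C57BL/6 wild-type mice aged 8 to 12 weeks. All mice had received 20 µg ovalbumin together with 4 mg alum for sensitization (days 0 and 7), then 40 minutes of nebulized 1% ovalbumin on each of days 16 to 18, with harvest on day 19, so no group without allergic inflammation was compared. Eosinophils of pooled lung lavage, gated on side scatter, CD45, CD11b, CD11c, Ly6G and Siglec-F, were divided by sorting into TREM-1+ and TREM-1- cells. The 6 lavages gave 12 libraries of total RNA, 6 in each fraction, and a lavage is a pool of mice, not an animal.

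NF-kB works as a dimer of 5 related proteins that share a Rel homology domain for DNA binding and dimerization. In resting cells most dimers are held in the cytoplasm by IkB proteins. Signals from Toll-like, interleukin-1 and TNF receptors activate the IKK kinase complex, which marks the inhibitors for degradation and so frees the dimers. The genes of several subunits and inhibitors are themselves targets of NF-kB, which gives the pathway its feedback. In granulocytes the family is known for inducing cytokines and for prolonging survival. Its activity is set mainly at the level of protein degradation and nuclear entry, and transcript levels do not measure it.

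The total count of a library lay between 16513387 and 21234053 for TREM-1- cells, and between 8626701 and 19274912 for TREM-1+ cells. Levels are CPM, counts relative to the library total, scaled with TMM factors, which set the bulk of genes equal between libraries. Trem1, which encodes the sorted antigen, ran from 18.4 to 42.1 CPM in TREM-1- and from 73.5 to 130.7 CPM in TREM-1+ libraries and was higher in the TREM-1+ partner in 6 of 6 lavages. Eosinophil markers summed to 7950 to 12000 CPM in TREM-1- and 6850 to 10700 CPM in TREM-1+ libraries. Of 13 such markers, 7 were lower and 3 higher in TREM-1+ cells. Siglecf stayed at 707 CPM or more and Ccr3 at 660 CPM or more in all 12 libraries. Others had far smaller levels, such as Epx (25.5 to 55.4 CPM), Ear2 (14.4 to 63.1) and Gata2 (7.71 to 35.6). Of the neutrophil marker list, 7 of 8 tested genes were higher and 1 lower in TREM-1+ libraries, with a summed level of 1550 to 2300 CPM in TREM-1- and 1330 to 2230 CPM in TREM-1+ libraries. Of the 8 tested T and innate lymphoid cell markers 6 were higher, and their sum ran from 7.38 to 59.5 CPM against 8.88 to 116 CPM. Macrophage markers (4 of 9 tested higher, 1 lower) summed to 1190 to 1690 CPM against 1440 to 1850 CPM, monocyte markers (2 of 6 higher, 1 lower) to 735 to 1330 against 644 to 1230 CPM, and dendritic cell markers (1 of 7 higher) to 65.3 to 80.0 against 96.7 to 122 CPM. No tested marker of B cells, mast cells or epithelium was called, and the mast cell genes Tpsb2 and Tpsab1 were at 0 counts in all libraries. A few genes gave most of several sums: Retnlg (909 to 1800 CPM) and Cxcr2 (249 to 467) for neutrophils. For macrophages they were Adgre1 (704 to 1280), Car4 (142 to 416) and Chil3 (2.86 to 573). For monocytes they were Ly6c2 (389 to 1090) and Csf1r (173 to 255). Most of the dendritic cell sum came from Itgae (46.3 to 92.2), while Flt3, Xcr1, Clec9a and Cd209a stayed at 4.41 CPM or less. Marco, Fabp4, C1qa, C1qb and C1qc stayed at 3.39 CPM or less. The sum was higher in the TREM-1+ partner in 0 of 6 lavages for eosinophil markers and in 1 of 6 for neutrophil and for monocyte markers. For macrophage markers it was higher in 5 of 6, and for dendritic cell and for T and innate lymphoid cell markers in 6 of 6. For B cell markers it was higher in 3 of 6, and for mast cell and for epithelial markers in 2 of 6. These sums do not measure the share of a cell type. The part of other cell types in the results on NF-kB genes was not tested. Libraries of lavages 1 and 2 were the closest pair of each fraction (chi-square per gene of 5.26 and 6.88, against 20.6 or more in all other pairs), and whether they are independent pools is not stated, so values are also given for lavages 3 to 6.

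Transcripts of Rel, which encodes the subunit c-Rel, and of Bcl3, which encodes a nuclear IkB protein that binds p50 and p52 dimers, were lower in TREM-1+ eosinophils than in their TREM-1- partners. Rel was lower by a factor of 0.830 and Bcl3 by a factor of 0.747, and both were lower in 6 of 6 lavages, as were 8.31% of all tested genes. The other 8 genes did not pass the test. In all, 2 of 10 genes were called lower and 0 higher by edgeR's quasi-likelihood test with the lavage as a block (Benjamini-Hochberg adjusted p below 0.05 over all genes), where 9.82% of all tested genes were called, 6.72% lower and 3.1% higher. At an unadjusted p below 0.05, 4 of the 10 passed, against 19.7% of all tested genes. That share covers genes of any level, and it was not computed for genes at the levels of these 10. Among genes of at least 10 CPM, as all 10 were, 18.4% were called and 13.6% were called lower and 4.77% higher, so a count of 2 in 10 is near the share of other genes at such levels. The median log2 fold change of the 10 genes was -0.03, against 0.00 for all genes tested. In bulk RNA, a smaller share of cells that express a gene and less RNA per cell cannot be told apart.

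**Figure D1:**
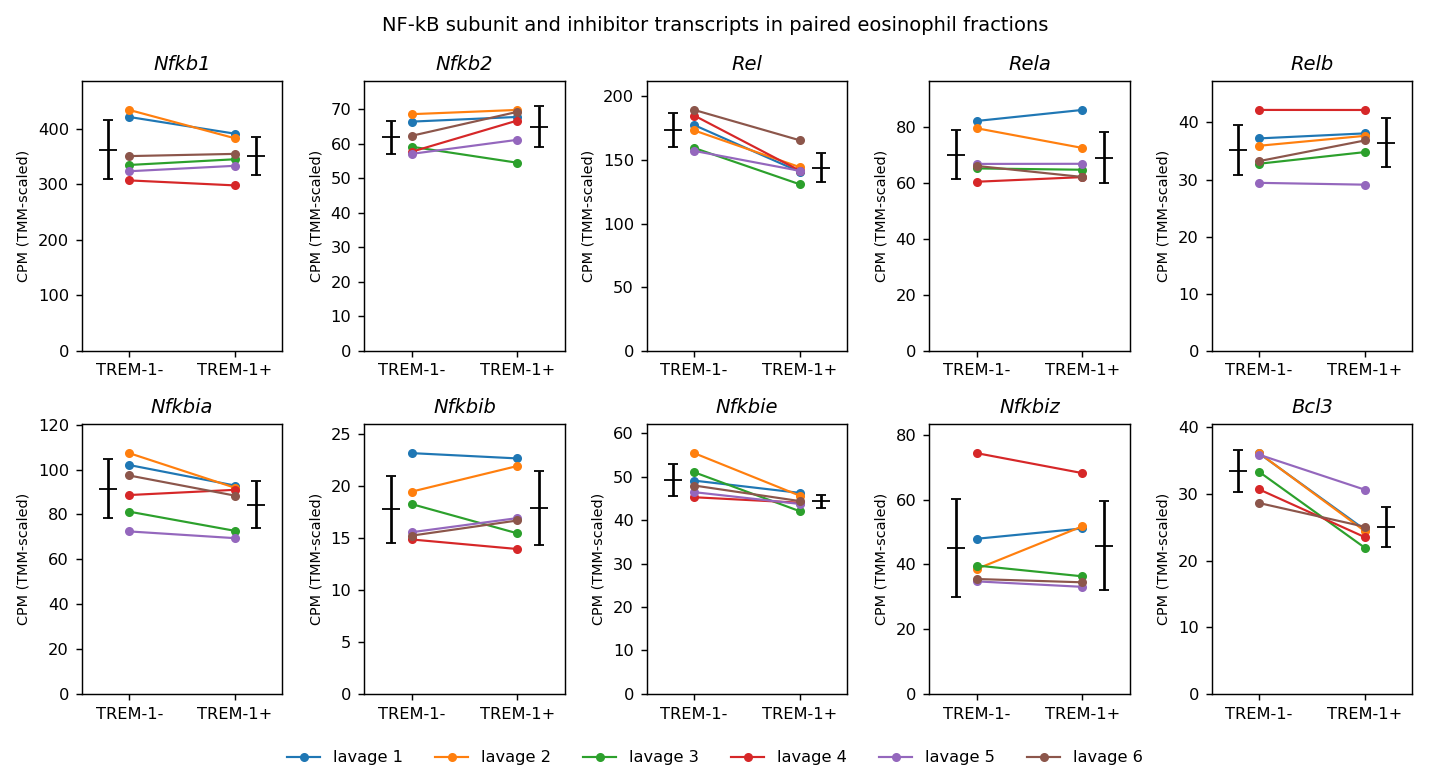
CPM of each of the 10 genes (vertical axes from 0) in the TREM-1- and TREM-1+ library of each lavage, joined by a line per lavage, with the mean and SD of 6 libraries as black bars at the sides. Rel and Bcl3 fall in all 6 lavages, whereas lines of Rela, Relb and Nfkbib run flat or cross.

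Promoter windows of the 5 genes that hold the letters of the motif to which the family binds are shown, whichever way the gene moved, with 1 of 3 windows for Nfkb2. RefSeq windows (build GRCm38.p6, from 250 bases before the transcription start to 50 bases from it onward) were found for 7 of the 10 genes, namely Bcl3, Nfkb2, Nfkbia, Nfkbib, Nfkbie, Rel and Rela. They are given by symbol, since the submitters' processing notes name GRCm39. The windows were searched on both strands for the kappa-B consensus, the degenerate motif of 10 letters of NF-kB dimers, and overlapping matches were merged. Capitals mark the matches. The sequences read 5′ to 3′ on the strand of the gene.
Rel, chr11:23770920-23771219, minus strand: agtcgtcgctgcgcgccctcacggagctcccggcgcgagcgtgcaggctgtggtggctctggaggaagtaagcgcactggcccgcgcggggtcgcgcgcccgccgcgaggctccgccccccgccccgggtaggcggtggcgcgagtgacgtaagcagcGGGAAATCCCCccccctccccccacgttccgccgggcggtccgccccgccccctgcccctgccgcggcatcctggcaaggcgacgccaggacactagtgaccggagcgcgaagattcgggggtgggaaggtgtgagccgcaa
Bcl3, chr7:19822706-19823005, minus strand: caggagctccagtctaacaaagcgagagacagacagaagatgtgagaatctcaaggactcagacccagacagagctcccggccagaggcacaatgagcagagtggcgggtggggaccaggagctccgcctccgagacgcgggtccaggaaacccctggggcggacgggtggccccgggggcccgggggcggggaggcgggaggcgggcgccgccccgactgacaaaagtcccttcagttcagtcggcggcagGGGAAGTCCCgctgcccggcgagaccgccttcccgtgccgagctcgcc
Nfkbia, chr12:55492598-55492897, minus strand: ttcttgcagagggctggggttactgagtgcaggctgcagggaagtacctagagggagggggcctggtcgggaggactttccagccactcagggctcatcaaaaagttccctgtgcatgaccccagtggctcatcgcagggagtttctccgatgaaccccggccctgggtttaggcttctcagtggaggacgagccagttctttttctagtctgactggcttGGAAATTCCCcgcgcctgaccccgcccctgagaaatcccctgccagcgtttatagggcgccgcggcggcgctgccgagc
Nfkbie, chr17:45555450-45555749, plus strand: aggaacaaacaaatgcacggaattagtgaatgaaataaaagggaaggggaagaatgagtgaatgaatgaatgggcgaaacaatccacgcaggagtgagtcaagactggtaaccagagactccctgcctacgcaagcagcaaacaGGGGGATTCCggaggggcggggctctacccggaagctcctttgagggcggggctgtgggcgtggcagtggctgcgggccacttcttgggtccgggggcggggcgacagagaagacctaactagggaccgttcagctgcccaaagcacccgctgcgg
Nfkb2, chr19:46304487-46304786, plus strand: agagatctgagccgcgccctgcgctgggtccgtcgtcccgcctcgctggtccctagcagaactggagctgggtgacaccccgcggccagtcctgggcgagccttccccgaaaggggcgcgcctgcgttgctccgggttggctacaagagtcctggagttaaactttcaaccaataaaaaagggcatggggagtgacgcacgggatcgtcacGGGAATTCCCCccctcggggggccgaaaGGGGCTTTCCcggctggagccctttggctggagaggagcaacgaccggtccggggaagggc

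In Rel the match begins 92 bases before the start and in Nfkbie 106 bases before it. In Nfkbia it lies from 29 to 20 bases before the start, and in Bcl3 it lies within the first bases of the transcript. Nfkb2 has 3 windows for different starts. The first, printed here, holds overlapping matches from 39 to 29 bases before its start and another from 11 to 2 bases before it, the middle one holds 2 matches, and 1 of these, gggactttcc, also lies in the last window, which overlaps it. No match lies in the windows of Nfkbib and Rela. Thus 5 of 7 genes had at least 1 match in a window, against 9.55% of all 27025 genes with a window and 11.5% of the tested ones. A match describes the letters and is neither a shown binding site nor a cause. The log2 fold changes of the 5 genes with a match were -0.27 (Rel), -0.42 (Bcl3), -0.12 (Nfkbia), -0.15 (Nfkbie) and 0.07 (Nfkb2), and those of the 2 without were 0.01 (Nfkbib) and -0.02 (Rela).

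Among the 3 subunits with a transactivation domain, Rel was the one called. In TREM-1- libraries Rel ran from 157 to 189 CPM with a median of 175 CPM, and in TREM-1+ libraries from 131 to 165 CPM with a median of 141 CPM. The ranges overlapped only through the TREM-1+ library of lavage 6, at 165 CPM, which was still below its own partner at 189 CPM. The mean was 174 ± 13.1 CPM without TREM-1 against 144 ± 11.5 CPM with it (SD, n = 6). From lavage 1 to 6 the paired log2 differences were -0.33, -0.26, -0.29, -0.39, -0.15 and -0.19. The fit gave a log2 fold change of -0.27 ± 0.04 (SE, edgeR adjusted p = 5.74e-06), with a 95% interval from -0.35 to -0.19. The call held in lavages 3 to 6 alone (-0.26, adjusted p = 0.000636). In lavages 1 and 2 alone the value was -0.28 (adjusted p = 6.68e-06), but whether these are independent pools is not stated. With library totals in place of TMM factors the value was -0.14 (adjusted p = 0.048), while the median of all genes moved to 0.13.

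Rela encodes p65, the most widely used activating subunit. Its CPM ran from 60.4 to 82.2 (median 66.5) in TREM-1- and from 62.1 to 86.1 (median 65.8) in TREM-1+ libraries. The ranges nearly coincided, and 3 lavages moved up and 3 down. The log2 fold change was -0.02 (adjusted p = 0.882) with a 95% interval from -0.12 to 0.08, so that changes beyond a factor of 0.919 or 1.056 lie outside it. Relb, the activating subunit of the alternative pathway, ran from 29.4 to 42.2 CPM in TREM-1- and from 29.1 to 42.2 CPM in TREM-1+ libraries. Its log2 fold change was 0.05 (adjusted p = 0.744, 95% interval -0.08 to 0.19).

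Nfkb1 encodes p105, which is processed to p50, and Nfkb2 encodes p100, which is processed to p52. Nfkb1 had the highest CPM of the family, from 307 to 434 (median 343) in TREM-1- and from 298 to 391 (median 349.8) in TREM-1+ libraries. The highest values of both fractions came from lavages 1 and 2, where Nfkb1 was lower in TREM-1+ cells (log2 differences -0.11 and -0.18). In lavages 3 to 6 the differences were 0.04, -0.04, 0.04 and 0.02. The fitted log2 fold change was -0.04 (adjusted p = 0.639, 95% interval -0.11 to 0.03). Nfkb2 ran from 57.1 to 68.6 CPM in TREM-1- and from 54.5 to 69.8 CPM in TREM-1+ libraries. It was higher in the TREM-1+ partner in 5 of 6 lavages, the exception being lavage 3, and its log2 fold change was 0.07 (adjusted p = 0.573, 95% interval -0.04 to 0.17). With library totals alone Nfkb2 was called higher (0.19, adjusted p = 0.0472), and Nfkb1 and Rela had values above 0 (0.09 and 0.10, adjusted p = 0.201 and 0.278).

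Of the classical inhibitors 0 of 3 were called. Nfkbia encodes IkB-alpha, the inhibitor that NF-kB itself induces within a short time. It ran from 72.4 to 107 CPM (median 93.0) in TREM-1- and from 69.4 to 92.9 CPM (median 89.7) in TREM-1+ libraries. The TREM-1+ library was below its partner in 5 of 6 lavages, the exception being lavage 4, by a log2 fold change of -0.12 ± 0.05 (SE, unadjusted p = 0.0166, edgeR adjusted p = 0.123). Of all tested genes, 18.9% were lower in at least 5 of 6 lavages. Nfkbie, for IkB-epsilon, ran from 45.3 to 55.5 CPM (median 48.6) in TREM-1- and from 42.1 to 46.3 CPM (median 44.2) in TREM-1+ libraries. It was below its partner in 6 of 6 lavages, as were 8.31% of all tested genes, with log2 differences from -0.28 in lavages 2 and 3 to -0.04 in lavage 4. The fitted value was -0.15 ± 0.06 (SE, unadjusted p = 0.0169, edgeR adjusted p = 0.124). Both values were close to 0 with library totals alone (0.01 for Nfkbia, adjusted p = 0.925, and -0.02 for Nfkbie, adjusted p = 0.87). Nfkbib, for IkB-beta, was the lowest of the 10 genes at 17.8 ± 3.23 CPM without TREM-1 against 17.9 ± 3.55 CPM with it (SD, n = 6). Its log2 fold change was 0.01 (adjusted p = 0.965), and its 95% interval, from -0.18 to 0.20, was the widest of the 3 inhibitors.

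Of the 2 nuclear IkB proteins, Bcl3 was called and Nfkbiz was not, and the difference between them was not tested. Bcl3, which can act as a co-activator or co-repressor on p50 and p52 dimers, ran from 28.6 to 36.1 CPM (median 34.6) in TREM-1- and from 21.9 to 30.6 CPM (median 24.5) in TREM-1+ libraries. The ranges overlapped through the TREM-1- library of lavage 6, at 28.6 CPM, and the TREM-1+ library of lavage 5, at 30.6 CPM. From lavage 1 to 6 the paired log2 differences were -0.55, -0.56, -0.60, -0.38, -0.23 and -0.19, so that the fall was largest in lavages 1 to 3. The fit gave a log2 fold change of -0.42 ± 0.08 (SE, edgeR adjusted p = 0.00017, 95% interval -0.58 to -0.27). The call held in lavages 3 to 6 alone (-0.35, adjusted p = 0.0285) and with library totals alone (-0.30, adjusted p = 0.0176). In lavages 1 and 2 alone the value was -0.54 (adjusted p = 2.37e-06), but whether these are independent pools is not stated. No gene of the 10 had fractions that did not overlap in CPM, against 0.951% of all tested genes (0.656% with TREM-1+ the lower).

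Nfkbiz encodes IkB-zeta, which is induced by Toll-like receptor and interleukin-1 signals and directs secondary targets such as Lcn2 and Il6. It ran from 34.7 to 74.3 CPM (median 39.1) in TREM-1- and from 33.1 to 68.2 CPM (median 43.7) in TREM-1+ libraries. Both libraries of lavage 4 were the highest of their fraction. The TREM-1+ partner was higher in lavages 1 and 2 (log2 differences 0.09 and 0.42) and lower in lavages 3 to 6 (-0.13, -0.12, -0.07 and -0.04). Fitted over all 6 lavages the log2 fold change was 0.03 (adjusted p = 0.886). It was 0.27 (adjusted p = 0.0121) in lavages 1 and 2 alone and -0.10 (adjusted p = 0.638) in lavages 3 to 6 alone, and that difference between lavages was not tested. Whether lavages 1 and 2 are independent pools is not stated.

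**Figure D2:**
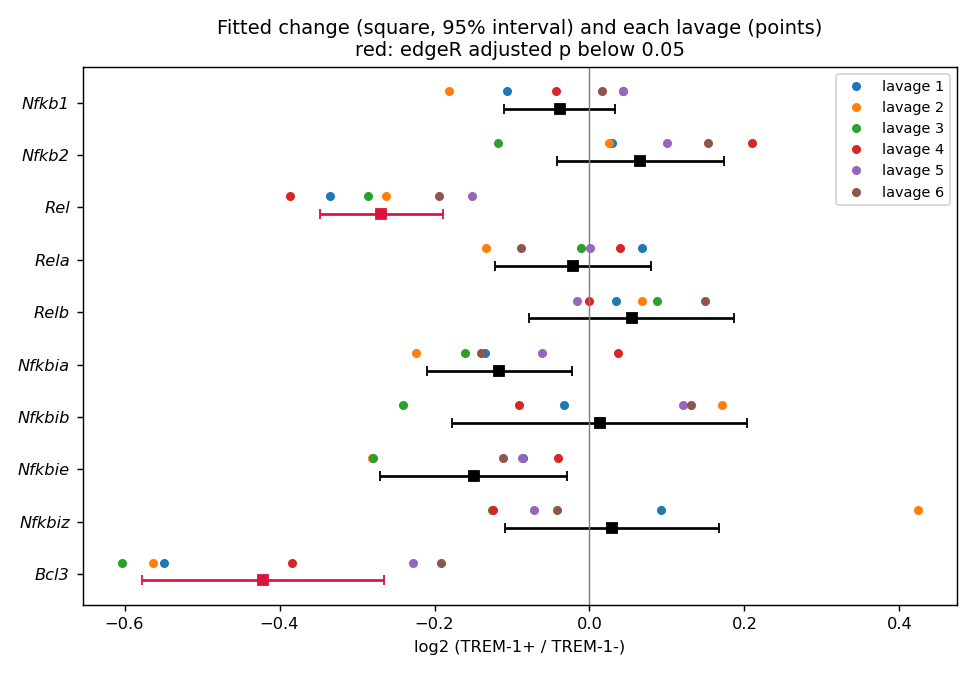
Log2 ratio of TREM-1+ to TREM-1- for each gene, with the edgeR fit and its 95% interval as a square and bar (red where the adjusted p was below 0.05) and the 6 paired differences of log2 CPM as points above it. All 6 points of Rel, Bcl3 and Nfkbie lie below 0, and the points of Nfkbiz spread from -0.13 to 0.42.

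Ratios between genes of 1 library do not depend on how the library was scaled. The ratio of each gene to Rela was therefore compared within lavages with an exact permutation test that flips signs (two-sided), whose smallest p with 6 pairs is 0.0312. The log2 ratio to Rela was lower in the TREM-1+ library in 6 of 6 lavages for Bcl3 (mean difference -0.40 ± 0.20, SD), Rel (-0.25 ± 0.14), Nfkbie (-0.13 ± 0.08) and Nfkbia (-0.09 ± 0.07). Each of the 4 reached p = 0.0312 in this exact test and an adjusted p of 0.0703 over the 9 ratios, so none passed after adjustment. With 4 of 9 ratios at the smallest p of the test, no lower adjusted p is possible. The adjusted result therefore cannot tell whether these 4 ratios differ. In Nfkbia the difference in 1 lavage was as small as -0.0017. The other 5 ratios went up in 3 or 4 lavages and down in the rest (mean differences -0.02 for Nfkb1, 0.09 for Nfkb2, 0.07 for Relb, 0.03 for Nfkbib and 0.05 for Nfkbiz). Their exact permutation p-values ran from 0.188 to 0.906.

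Lavage took up 92.2% of the sum of squares of log2 CPM for Nfkb1, 95% for Rela, 94.5% for Relb and 93.4% for Nfkbiz, with a median of 88.7% over the 10 genes and 65.1% over all genes tested. The fraction took up 64.1% for Rel, 69.6% for Bcl3 and 49.4% for Nfkbie, but the median over the 10 genes was 5.24%, against 5.07% over all genes tested. These shares are not directly comparable, because lavage has more levels than fraction. Averaged over both fractions, the lavages spanned 2.10-fold in Nfkbiz, 1.59-fold in Nfkbib and 1.13-fold in Nfkbie. Lavages 1 and 2 held the 2 highest values of Nfkb1, Rela, Nfkbia and Nfkbib in each fraction.

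Levels of different genes were compared as CPM per kilobase of the longest GENCODE vM21 transcript, over all 12 libraries. Nfkb1 was first at 85.9 ± 10.3 and Nfkbia second at 55.7 ± 7.58 CPM per kilobase (SD, n = 12). Neither range overlapped the next gene's. Rela (25.6 ± 3.15) was above Rel (21.3 ± 2.60) in 4 of 6 TREM-1- and 6 of 6 TREM-1+ libraries, with overlapping ranges, and Rel was above Nfkb2 (16.5 ± 1.40) in 12 of 12. Nfkb2, Bcl3 (15.8 ± 2.86) and Nfkbie (15.6 ± 1.22) had overlapping ranges over all libraries, but with this length the order of Bcl3 turned with the fraction. Bcl3 was at 18.1 ± 1.72 without TREM-1 against 13.5 ± 1.60 with it, and Nfkb2 at 16.1 ± 1.24 and 16.9 ± 1.55 CPM per kilobase (SD, n = 6). Nfkb2 exceeded Bcl3 in 1 of 6 TREM-1- and 5 of 6 TREM-1+ libraries, and Bcl3 exceeded Nfkbie in 5 of 6 and 1 of 6. Nfkbiz (11 ± 3.34) and Relb (10.9 ± 1.29) did not differ beyond their spread either, and Nfkbib was last at 8.67 ± 1.57. The order depends on which transcripts are made, which gene counts do not show. With the median transcript length of each gene, 7 of 10 genes changed place, Rela moving to second and Bcl3 to place 4, while Nfkb1 stayed first. Bcl3 (36.7 to 60.4) was then above Nfkb2 in 12 of 12 libraries with no overlap, and above Nfkbie (17.3 to 22.8). The turn of its order with the fraction was thus seen only with the longest transcript.

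The rest of the pathway was described with 6 lists of genes, of which 115 of 129 were tested. In these lists 10 genes were called higher and 20 lower, together 26.1% of those tested, against 9.82% of all tested genes and 18.4% of those of at least 10 CPM. The lists were chosen with earlier results of these data known, so their shares are description and not independent evidence. The balance of directions changed in each list with calls when library totals replaced TMM factors, and both counts are given. Another scaling, the relative log expression factors of edgeR, again gave 10 higher and 20 lower. Of 13 IKK and related kinase genes 1 was lower and 0 higher (median -0.03), a called share of 7.69%. Scaling by library totals gave 0 lower and 1 higher. Leaving out lavage 4 gave 2 lower and 0 higher, and leaving out lavage 6 gave 1 of each. The gene called lower was Ikbkb, which encodes the catalytic subunit IKK-beta. It ran from 96.1 to 119 CPM in TREM-1- and from 82.5 to 106 CPM in TREM-1+ libraries (log2 fold change -0.19 ± 0.04, SE, edgeR adjusted p = 0.00327) and was lower in 6 of 6 lavages. The call of Ikbkb was lost with library totals alone (-0.06, adjusted p = 0.558) and in lavages 3 to 6 alone (-0.16, adjusted p = 0.088). Chuk, for IKK-alpha, and Ikbkg, for the scaffold NEMO, had log2 fold changes of 0.04 and -0.02 (adjusted p = 0.797 and 0.919). Map3k14, for the kinase NIK of the alternative pathway, had 0.19 (adjusted p = 0.0993).

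Among 25 adaptors and ubiquitin ligases near the receptors, 3 were lower and 1 higher (median -0.05). Their called share of 16% lies near the 18.4% of genes of at least 10 CPM, and with library totals alone 1 was lower and 3 were higher. Myd88, the adaptor of Toll-like and interleukin-1 receptors, ran from 85.1 to 116 CPM in TREM-1- and from 70.8 to 91.4 CPM in TREM-1+ libraries. The fit gave -0.29 ± 0.05 on the log2 scale (SE, edgeR adjusted p = 2.58e-05). Irak2, a kinase family member that acts next to Myd88, lay at 141 to 158 CPM without TREM-1 against 119 to 135 CPM with it, with no overlap (log2 fold change -0.26 ± 0.04, adjusted p = 6.61e-06). Fbxw11, which encodes a ubiquitin ligase subunit that recognises phosphorylated IkB, was lower (-0.20 ± 0.04, adjusted p = 0.00127), and Traf3, an adaptor that restrains the alternative pathway, was higher (0.13 ± 0.04, adjusted p = 0.0366). With library totals alone Irak2 (-0.13, adjusted p = 0.0775) and Fbxw11 (-0.07, adjusted p = 0.407) were not called. The call of Fbxw11 was also lost when fitting lavages 1 and 2 by themselves, at -0.15 (adjusted p = 0.08), and when lavages 3 and 4 were left out, also at -0.15 (adjusted p = 0.0568). Traf3 was not called by DESeq2 (adjusted p = 0.0516), by limma-voom (0.0518), without lavage 1, 3, 4 or 5 (log2 fold change 0.11 to 0.14, adjusted p from 0.0862 to 0.134), in lavages 1 and 2 alone (0.506), in lavages 3 to 6 alone (0.0521) or without lavages 3 and 4 (0.269).

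Of 19 negative regulators outside the IkB family 3 were higher and 4 lower (median 0.03). Their called share was 36.8%, against 9.82% of all tested genes and 18.4% of those of at least 10 CPM. Scaling by library totals gave 6 higher and 1 lower, and leaving out lavage 4 gave 1 higher and 4 lower. Nlrc5, which is also a regulator of MHC class I genes and inducible by interferon, fell from 379 ± 122 to 288 ± 99.7 CPM (SD, n = 6), a log2 fold change of -0.41 ± 0.04 (SE, edgeR adjusted p = 1.66e-09). Pdlim2, a nuclear ubiquitin ligase for p65, fell from 88.8 ± 9.46 to 72.5 ± 5.84 CPM (SD, n = 6). The deubiquitinase gene Cyld (-0.20 ± 0.04, adjusted p = 0.000321) and Rnf11, for a partner of A20 (-0.23 ± 0.05, adjusted p = 0.000957), were lower too. Nlrx1 (0.32 ± 0.07, adjusted p = 0.00302), Zc3h12a, for the RNase regnase-1 (0.24 ± 0.06, adjusted p = 0.00821), and Optn (0.45 ± 0.14, adjusted p = 0.0363) were higher. Tnfaip3, for the inducible feedback inhibitor A20, was at 331 ± 51.7 CPM without TREM-1 against 320.2 ± 49.0 CPM with it (log2 fold change -0.05, edgeR adjusted p = 0.48). It was lower in 5 of 6 lavages, where 18.9% of all tested genes were lower in at least 5. With library totals alone Pdlim2 (-0.16, adjusted p = 0.0612), Cyld (-0.07, adjusted p = 0.367) and Rnf11 (-0.11, adjusted p = 0.24) were not called. The call of Zc3h12a was lost without lavage 4 (log2 fold change 0.21, adjusted p = 0.0513), without lavages 3 and 4 (0.18, adjusted p = 0.133) and in lavages 1 and 2 alone (0.12, adjusted p = 0.444). For Optn the call was lost without lavage 1, 2, 3, 4 or 5 (adjusted p from 0.0678 to 0.142), in lavages 3 to 6 alone (0.33) and without lavages 3 and 4 (0.116), while its log2 fold change stayed between 0.39 and 0.46.

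Of 50 textbook target genes 37 were tested and 13 had too few counts, among them Cxcl1 at 0 counts, Lcn2 and Nlrp3. Of those tested, 6 were higher and 10 lower, with a median log2 fold change of 0.02. Their called share was 43.2%, against 9.82% of all tested genes and 18.4% of those of at least 10 CPM. Scaling by library totals gave 10 higher and 5 lower, and leaving out lavage 6 gave 6 higher and 6 lower. Il1b, for interleukin-1 beta, ran from 17.4 to 23.4 CPM in TREM-1- and from 42.2 to 54.6 CPM in TREM-1+ libraries, with no overlap (log2 fold change 1.19 ± 0.07, SE, edgeR adjusted p = 1.97e-13). Il1a, for interleukin-1 alpha (0.43 ± 0.07), Csf1, a macrophage growth factor (0.41 ± 0.03), and Tnfaip2 (0.45 ± 0.06) were higher in 6 of 6 lavages. Ier3, an early response and survival gene, ran from 28.8 to 40.8 CPM in TREM-1- and from 18.0 to 24.5 CPM in TREM-1+ libraries, also with no overlap (-0.65 ± 0.08, adjusted p = 2.87e-07). Mmp9, for a matrix metalloproteinase (-0.59 ± 0.05), the survival kinase gene Pim1 (-0.32 ± 0.03) and Irf1, an interferon-inducible transcription factor gene (-0.29 ± 0.03), were lower in 6 of 6 lavages. Among the remaining 2 higher and 6 lower targets, named by no rule, Tnf, for tumour necrosis factor, was at 13.2 ± 1.98 CPM without TREM-1 against 9.36 ± 1.55 CPM with it (log2 fold change -0.50 ± 0.12, adjusted p = 0.00342). The other lower ones were Cd80 (log2 fold change -0.275), Cflar (-0.15), Ccrl2 (-0.27), Bcl2l1 (-0.14) and Gadd45b (-0.31). The 2 higher ones were Ccl3 (0.56 ± 0.13, adjusted p = 0.00361) and Tlr2 (1.01 ± 0.28, adjusted p = 0.0155). Tlr2 was low in both fractions, with means of 1.47 CPM without TREM-1 and 2.84 CPM with it. With library totals alone Il1b, Il1a, Csf1, Tnfaip2, Ier3, Mmp9, Pim1 and Irf1 kept their call and direction.

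Of 19 nuclear cofactors 2 were lower and 0 higher (median -0.03), a called share of 10.5% against 9.82% of all tested genes. With library totals alone 1 was lower and 1 higher. Kat2b, for the acetyltransferase PCAF, was called at the margin (log2 fold change -0.16 ± 0.05, SE, edgeR adjusted p = 0.0436), a call lost with library totals alone (0.789), with limma-voom (0.062), without lavage 1, 4, 5 or 6 (log2 fold change -0.17 to -0.11, adjusted p from 0.0678 to 0.229), in lavages 1 and 2 alone (0.968) and without lavages 3 and 4 (0.142). Neither Nfkbid, for the nuclear IkB protein IkB-NS, nor Nfkbil1 was called (log2 fold changes -0.04 and -0.04, adjusted p = 0.78 and 0.934), and Ankrd1 had too few counts to be tested.

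**Figure D3:**
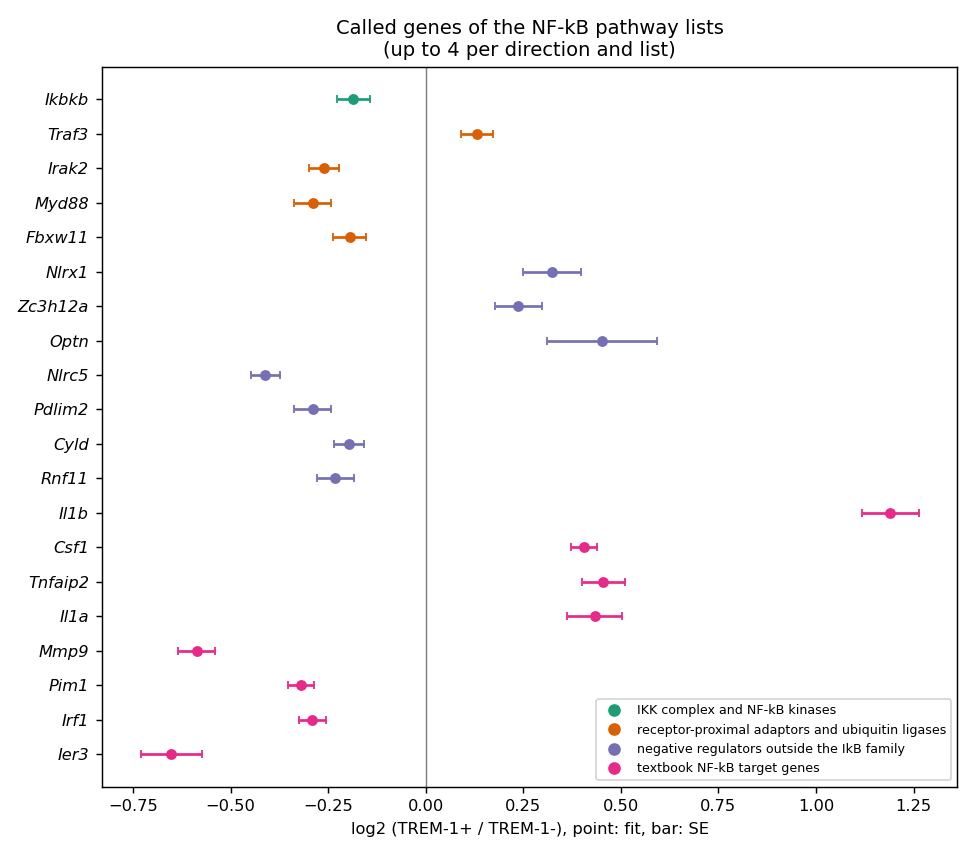
Fitted log2 ratio of TREM-1+ to TREM-1- (points) with its SE (bars) for the called genes with the smallest p, up to 4 per direction and list, coloured by list, with nuclear cofactors not drawn. Il1b lies farthest to the right at 1.19 and Ier3 farthest to the left at -0.65.

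The scaling of the libraries bears on every small value above. TREM-1+ libraries had the larger TMM factor in 6 of 6 lavages. With library totals alone the pathway lists gave 21 higher and 8 lower genes in place of 10 and 20, and all tested genes gave 1880 higher and 376 lower in place of 568 and 1229. With relative log expression factors all tested genes gave 551 higher and 1261 lower. Rel and Bcl3 were below 0 and called under each of these scalings. With library totals alone, though, Rel was near the threshold at -0.14 (edgeR adjusted p = 0.048), and Bcl3 was at -0.30 (edgeR adjusted p = 0.0176).

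**Figure D4:**
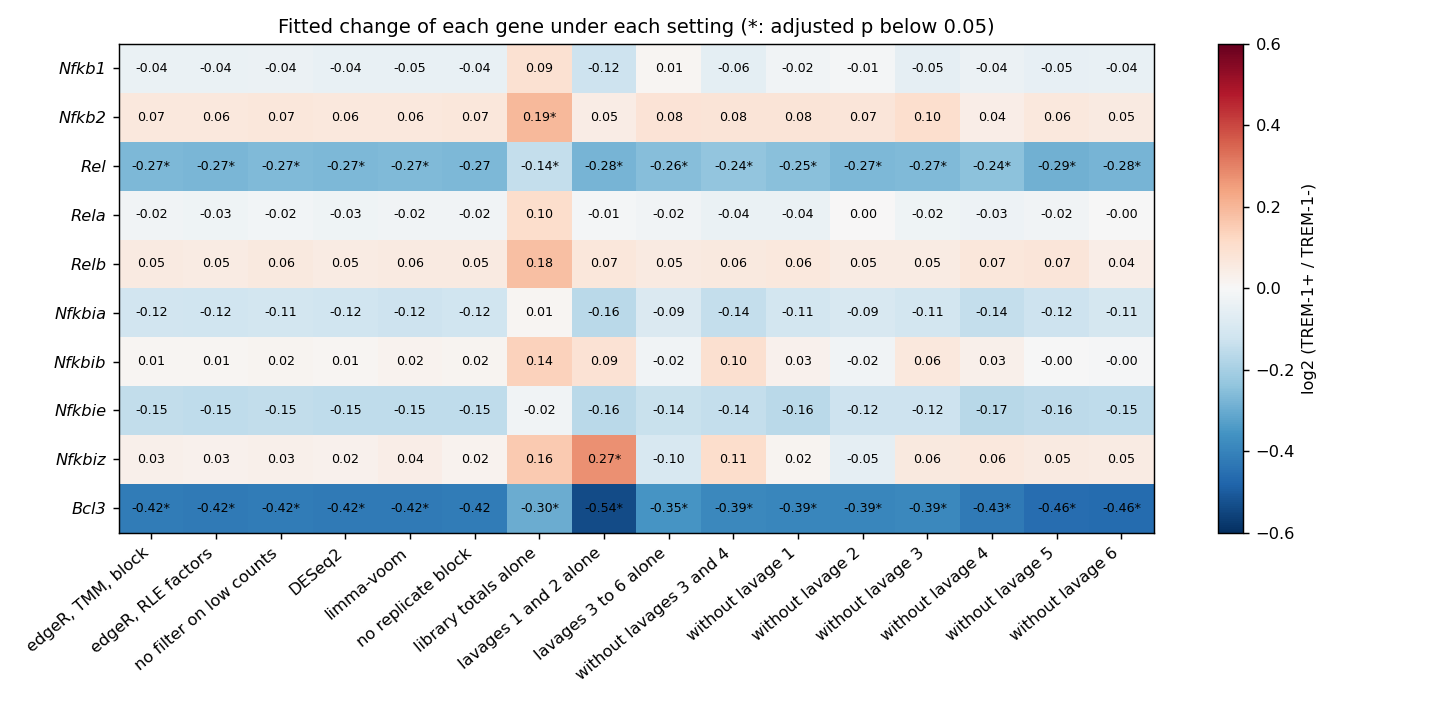
Log2 ratio of TREM-1+ to TREM-1- of each gene (rows) under each setting (columns), coloured from blue (lower in TREM-1+) to red (higher), with an asterisk where the adjusted p was below 0.05. Rel and Bcl3 are blue in every column and carry an asterisk in every column but the one with no replicate block, and the column of library totals alone is shifted upward.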

How the data were processed

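Sorted eosinophils gave total RNA, from which ribosomal RNA was removed before stranded libraries were sequenced with paired reads of 100 bp, per the labels' protocols. The deposited table holds an estimated count per gene and library. Named in the submitters' processing notes, with no role, are the build GRCm39, edgeR 3.42.4, kallisto 0.45.0 and R 4.3.0. Reads of overlapping genes may not be separated, because annotation and strand setting are not given in the sources used here. The counts were whole numbers as deposited, and rounding changed 0 values. The authors also deposited log2 CPM values for 17934 genes, which TMM factors and a prior count of 1 gave again to within 5e-09. Of per-sample columns, 0 were left unused.

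The test was that of edgeR 4.0.16 under R 4.3.3 (TMM, filterByExpr by fraction with at least 10 counts and a total of at least 15, robust quasi-likelihood F test, lavage as a block), coded TREM-1+ minus TREM-1-. SEs were derived from F statistics. DESeq2 1.42.0, limma 3.58.1, other scalings and left-out lavages were alternatives. The scripts were tested on simulated data. Both fractions of a number came from the same lavage, per the series' design text. Deviations from group means correlated within pairs at 0.127 to 0.502, and 5 of 6 TREM-1+ libraries correlated best with their own partner. The exception was lavage 3, at 0.127. Without lavage 3 the log2 fold changes were -0.27 for Rel (edgeR adjusted p = 1.56e-05) and -0.39 for Bcl3 (edgeR adjusted p = 0.00063). Whether the 6 pools are of separate mice is not stated, and the p-values reflect only how much these pools vary. For genes with at least 20 counts in a pair of libraries of a fraction, a chi-square was divided by the number of genes (near 1 for counting noise by itself). It was 5.26 (TREM-1-) and 6.88 (TREM-1+) between lavages 1 and 2, and 20.6 to 191 in every other pair. Separate preparations of 1 pool would also exceed 1, so this does not show whether lavages 1 and 2 are independent. All 6 were counted as labelled, and lavages 3 to 6 are also given by themselves.

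The genes, the lists and the rule for named genes (all 10 genes, Trem1, and up to 4 called genes per direction and list with the smallest p) were chosen with earlier results of these data known. Tnf, Tlr2, Ccl3, Cd80, Cflar, Ccrl2, Bcl2l1, Gadd45b, Tnfaip3, Chuk, Ikbkg, Map3k14, Nfkbid and Nfkbil1 are named outside the rule, after their values were seen. So are the cell type markers given with a level of their own. Proteins were not compared, and 1 gene that the rule names is not reported here.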

Additional observations from a re-analysis of the deposited data

Results flagged for a closer look

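In each fraction the 6 CPM values of a gene, and its 6 paired differences, were checked for a value far from the others (gap to the nearest over the whole range above 0.625). Of 30 such sets 2 were picked out, and chance picks about 1 in 20. Nfkbiz had 74.3 CPM in the TREM-1- library of lavage 4, with a gap of 0.668 of the range to the next library at 47.9 CPM. Its TREM-1+ partner was also the highest of its fraction, at 68.2 CPM. Bcl3 had 30.6 CPM in the TREM-1+ library of lavage 5, with a gap of 0.638 of the range to the next library at 25.1 CPM. Without lavage 5 the log2 fold change of Bcl3 was -0.46, against -0.42 with it.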

How the results depend on the processing

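Rel and Bcl3 were called lower under 14 of 15 alternatives, among them lavages 1 and 2 alone, whose independence is not stated. The exception was the fit with no replicate block, that is without the pairing by lavage, with log2 fold changes of -0.27 (adjusted p = 0.269) and -0.42 (adjusted p = 0.101). That fit called 83 genes, 27 higher and 56 lower, and 3 genes of the pathway lists, 1 higher and 2 lower. It called 0 of the 10 genes (2 at an unadjusted p below 0.05, against 7.12% of all genes of any level). With library totals alone 1880 genes were higher and 376 lower, 1 of the 10 genes was higher, 21 pathway genes were higher and 8 lower, and Nfkb1 (0.089), Rela (0.10) and Nfkbia (0.012) changed sign. In lavages 3 to 6 alone 1168 genes were called, 366 higher and 802 lower, and Nfkb1 (0.012), Nfkbib (-0.022) and Nfkbiz (-0.10) changed sign. In lavages 1 and 2 alone 1 of the 10 genes, Nfkbiz, was called higher, and without lavages 3 and 4 347 genes were higher. The cause of these shifts was not tested. Leaving out 1 lavage at a time gave 6 to 11 higher pathway genes, and log2 fold changes from -0.038 to 0.0014 for Rela, -0.022 to 0.064 for Nfkbib and -0.054 to 0.062 for Nfkbiz. Differences of log2 ratios to Rela then ran from -0.46 to -0.36 for Bcl3, -0.28 to -0.21 for Rel, -0.15 to -0.10 for Nfkbie, -0.11 to -0.071 for Nfkbia, -0.042 to 0.015 for Nfkb1, -0.024 to 0.083 for Nfkbib and -0.056 to 0.088 for Nfkbiz. With 5 pairs the exact permutation test cannot go below 0.0625. A prior count of 0.25 left each ratio on its side of the threshold, which 4 of 9 ratios at the smallest p of 6 pairs cannot cross.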
